A study of Mus musculus with 8 samples.

Results

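The vascular endothelial growth factor (VEGF) family was described here through 10 genes: the ligands Vegfa, Vegfb, Vegfc and Pgf, the receptors Flt1, Kdr and Flt4, the co-receptors Nrp1 and Nrp2, and adrenomedullin (Adm), a vessel-active peptide outside the family. A gene probe was counted as a member where its RefSeq accession was a transcript of 1 of these genes. This gave 9 probes, 1 for each gene but Nrp2, among 34967 gene probes. Of the 9, 8 passed the filter on dim probes that left 23389 probes for testing, and the Flt1 probe did not. The family was proposed because of its levels in homozygous embryos, Vegfa's above all. The comparisons that involve these embryos are therefore given as a description, and no test of them supports the choice.

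RNA of whole mouse embryos at stage E11.5 was read on the arrays, and the parents carried an allele that expresses Ott1 (current symbol Rbm15) at a low level. There were 2 wild-type embryos (11 and 13), 3 heterozygous embryos (3, 10 and 15) and 3 homozygous embryos (2, 7 and 16), with 1 array each. Only the Ott1 allele sets the groups apart in the labels, which name no strain, litter or treatment, and no probe was matched to Rbm15, so the lowered dose could not be checked on these arrays. Every level is a mixture over all tissues of an embryo, and in such RNA fewer cells of a type and less RNA per cell cannot be told apart.

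VEGF ligands are secreted proteins that bind receptor tyrosine kinases on endothelial cells, the cells that line vessels. Vegfa acts through Kdr and drives vessel growth, and the embryo is known to be sensitive to its dose. Flt1 binds Vegfa, Vegfb and Pgf and acts largely as a trap for ligand in the embryo. Flt4 with its ligand Vegfc directs the outgrowth of lymphatic vessels, and neuropilins hold ligands at the cell surface beside the receptors. Vegfa and Adm are both known targets of the hypoxia-inducible factors, while Adm signals through a separate receptor, Calcrl with Ramp2 or Ramp3.

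The 250 bases before the annotated start are shown for the 3 members whose homozygous embryos all lay above the others, Vegfa, Vegfb and Adm, and for Kdr, the main receptor of Vegfa. The sequences are RefSeq's for the assembly GRCm38.p6, at chr17:46032378-46032627 on the minus strand for Vegfa, chr19:6987652-6987901 on the minus strand for Vegfb, chr7:110627407-110627656 on the plus strand for Adm and chr5:75978456-75978705 on the minus strand for Kdr. Each is written in the direction of its gene and ends at the base before the start. Vegfa has 2 starts in the table, of which the outermost was used. The annotated span of Kdr reaches out to chr5:75979072, so its window lies inside that span and not beyond the gene. The windows of Pgf, Flt1 and Nrp1, which are not shown, also lie inside the spans of their genes. Capitals mark matches, on either strand, to ACGTG and GCGTG, the letters at the core of the element that hypoxia-inducible factors bind, to the GC box GGGCGG and to TATAA.
Vegfa: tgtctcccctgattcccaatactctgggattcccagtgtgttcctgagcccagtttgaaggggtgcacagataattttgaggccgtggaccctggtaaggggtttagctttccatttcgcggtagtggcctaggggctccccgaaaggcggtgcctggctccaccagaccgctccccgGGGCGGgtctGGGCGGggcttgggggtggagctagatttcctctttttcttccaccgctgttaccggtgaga
Vegfb: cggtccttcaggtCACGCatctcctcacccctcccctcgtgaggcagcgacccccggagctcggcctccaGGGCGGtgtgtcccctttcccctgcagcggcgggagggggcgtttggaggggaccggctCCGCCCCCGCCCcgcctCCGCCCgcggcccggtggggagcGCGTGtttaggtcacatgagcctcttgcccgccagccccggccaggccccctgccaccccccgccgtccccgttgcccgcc
Adm: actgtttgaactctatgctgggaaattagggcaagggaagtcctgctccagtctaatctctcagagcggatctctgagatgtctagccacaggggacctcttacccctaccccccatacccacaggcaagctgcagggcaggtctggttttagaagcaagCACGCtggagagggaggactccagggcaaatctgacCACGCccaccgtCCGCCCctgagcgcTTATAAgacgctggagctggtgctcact
Kdr: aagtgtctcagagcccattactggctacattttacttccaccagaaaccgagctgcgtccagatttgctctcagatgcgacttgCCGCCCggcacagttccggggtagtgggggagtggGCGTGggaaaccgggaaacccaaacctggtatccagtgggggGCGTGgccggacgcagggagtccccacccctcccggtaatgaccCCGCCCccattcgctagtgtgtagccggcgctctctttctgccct

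In these windows GCGTG matched at 2 places each in Vegfb, Adm and Kdr, and neither ACGTG nor GCGTG matched in that of Vegfa. Bases farther from the start were not searched, so a missing match says nothing of elements outside the window. GGGCGG matched at 2 places in Vegfa, 4 in Vegfb, 1 in Adm and 2 in Kdr. The 2 TATAA matches of Adm overlap, 1 on each strand, and the nearer begins 27 bases before the start. All 10 members had a window in the table. GGGCGG was found in 10 of 10, either ACGTG or GCGTG in 7 of 10, ACGTG in 0, and TATAA in 2, Flt1 and Adm. Over all 32851 windows of this length, the shares were 32.7% for GGGCGG, 38.6% for ACGTG or GCGTG, 16.6% for ACGTG alone and 22.8% for TATAA. The members' windows held 56.8% to 76.4% G and C, against a median of 52.4% over all windows. A match is a run of letters and no evidence of binding.

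The 3 homozygous arrays differed from the rest before normalization. Embryos 2, 7 and 16 had median background-corrected intensities of 60.0, 61.9 and 84.5, where the 5 others ranged from 48.4 to 57.8, so array brightness and homozygosity cannot be told apart. Embryo 16 stood apart most, with a median correlation of 0.935 with the other arrays, against 0.961 to 0.971 for the 7 others, and with 26619 probes above background, against 22526 to 23721. The mean log2 level of the measured Y-linked probes, 4 in all, was 3.92 to 4.15 in embryos 3, 15 and 16 and 7.48 to 7.80 in the rest, and the labels give no sex. The part of these differences in the results was not tested.

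Vegfa was the member with the largest difference between genotypes. Its log2 level was 7.18 and 7.18 in wild-type embryos 11 and 13, 7.66, 7.64 and 7.02 in heterozygous embryos 3, 10 and 15, and 8.65, 8.67 and 9.41 in homozygous embryos 2, 7 and 16. All 3 homozygous embryos lay above the 5 others, with a gap of 0.98 between the lowest of the first and the highest of the second, and embryo 16 was the highest. The group means were 7.18 ± 0.00053 (SD, n = 2) in wild-type, 7.44 ± 0.37 (SD, n = 3) in heterozygous and 8.91 ± 0.43 (SD, n = 3) in homozygous embryos. The difference between the homozygous and the 5 other embryos was 1.57 on the log2 scale (SE 0.22, 95% interval 1.06 to 2.08), or 2.97-fold. The same order held in the intensities as deposited, which were 409, 442 and 690 in embryos 2, 7 and 16 and ranged from 105 to 211 in the rest.

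Vegfb, a ligand of Flt1, was at 9.16 and 9.36 in wild-type, at 9.32, 9.56 and 9.05 in heterozygous, and at 10.08, 9.82 and 9.65 in homozygous embryos (embryos in the same order). The homozygous embryos again lay above all others, but embryo 16 was the lowest of them and only 0.087 above heterozygous embryo 10. The difference between the homozygous and the other embryos was 0.56 (SE 0.14, 95% interval 0.23 to 0.88), or 1.47-fold.

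Vegfc, the ligand of Flt4, was at 6.58 and 6.67 in wild-type, at 6.70 and 6.61 in heterozygous embryos 3 and 10, and at 6.68, 6.96 and 7.01 in homozygous embryos. Its spot was irregular on the array of embryo 15, so the fit used 7 embryos. Homozygous embryo 2 fell within the range of the others, and the difference was 0.24 (SE 0.11, 95% interval -0.01 to 0.50).

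Pgf, placental growth factor, was at 7.25 and 7.22 in wild-type, at 7.20, 7.34 and 7.36 in heterozygous, and at 7.21, 7.34 and 8.02 in homozygous embryos. Embryo 16 alone lay outside the range of the 5 others. The difference of 0.25 (SE 0.17, 95% interval -0.15 to 0.64) became -0.0012 without that embryo.

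Adm was at 5.35 and 5.33 in wild-type, at 5.11, 5.81 and 5.15 in heterozygous, and at 6.80, 5.90 and 7.55 in homozygous embryos. The groups did not overlap, but homozygous embryo 7 was only 0.081 above heterozygous embryo 10. The homozygous mean was 6.75 ± 0.83 (SD, n = 3), the widest spread of any tested member in any genotype. The difference was 1.40 (SE 0.33, 95% interval 0.64 to 2.15), or 2.63-fold. It was 0.99 without embryo 16 and 1.82 without embryo 7.

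**Figure D1:**
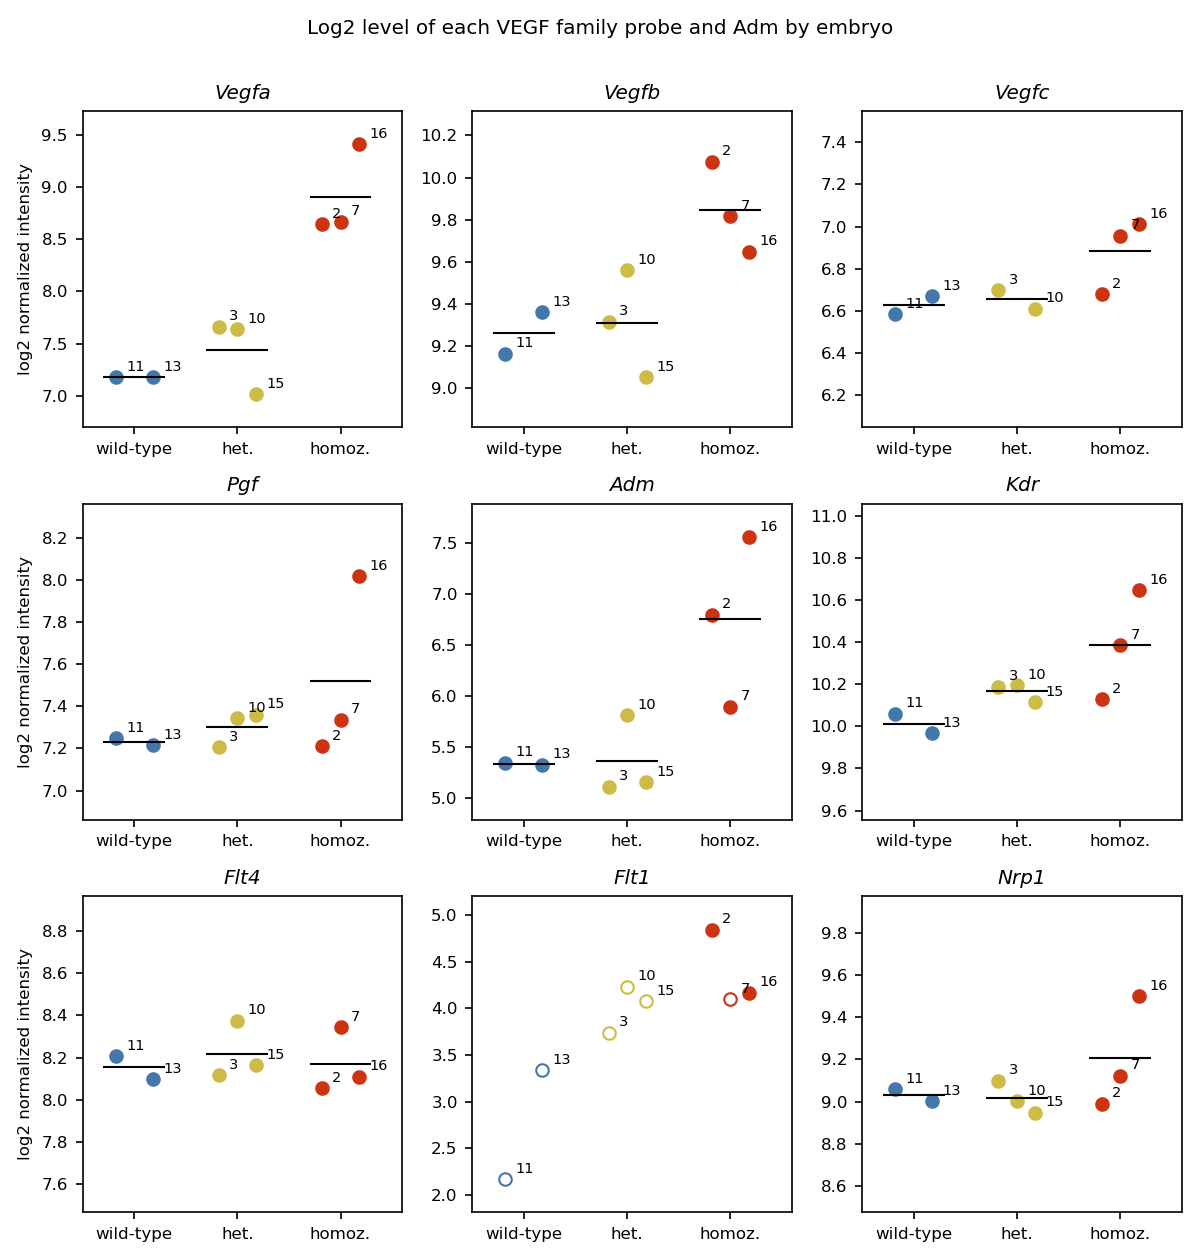
Log2 normalized intensity (vertical axis) of the 9 member probes in each embryo, by genotype (horizontal axis), with embryo numbers beside the points. Bars are group means (none for Flt1), open points were not above background, and each panel has its own vertical range of at least 1.5 log2 units. Vegfa, Vegfb and Adm have all 3 homozygous embryos above the 5 others, and Flt4 does not.

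Kdr, the main signalling receptor for Vegfa, was at 10.06 and 9.97 in wild-type, at 10.19, 10.19 and 10.12 in heterozygous, and at 10.13, 10.38 and 10.65 in homozygous embryos. Embryo 2 lay within the range of the heterozygous embryos, while embryos 7 and 16 lay above all others. The difference was 0.28 (SE 0.13, 95% interval -0.0038 to 0.57), or 1.22-fold. Median scaling gave -0.0029 and the deposited value table -0.04, where the median of all tested probes lay at -0.22 and -0.25 in place of -0.06.

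Flt4, the receptor for Vegfc, showed no separation. It was at 8.21 and 8.10 in wild-type, at 8.12, 8.38 and 8.16 in heterozygous, and at 8.06, 8.34 and 8.11 in homozygous embryos, so the homozygous range lay almost wholly inside that of the others. The difference was -0.02, and its 95% interval of -0.26 to 0.22 leaves out changes of the size seen for Vegfa.

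Flt1 was too dim for a comparison. Its probe was above background in homozygous embryos 2 and 16, at 4.85 and 4.17, and not in homozygous embryo 7 or in any of the 5 others. No fold is given, because the homozygous mean of 4.37 lay below the bound of 4.44 that the arrays set for the other embryos.

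Nrp1, the neuropilin that binds Vegfa beside Kdr, was at 9.06 and 9.0 in wild-type, at 9.10, 9.0 and 8.95 in heterozygous, and at 8.99, 9.12 and 9.50 in homozygous embryos. Embryo 16 was the highest, and embryo 7 lay only just above the highest heterozygous embryo. The difference of 0.18 (SE 0.12, 95% interval -0.09 to 0.46) was 0.035 without embryo 16. Median scaling gave -0.07 and the deposited value table -0.10.

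Counted over the 8 tested members, 7 differences between homozygous and other embryos were positive and 8 lay above the median of all tested probes. The members' median was 0.26, against -0.06 for all. It was 0.11 under median scaling, with 5 of 8 positive and 7 of 8 above the median of all, and 0.16 without embryo 16. By limma's adjusted p, 0 of 8 passed the threshold of 0.05, and 3 of 8 (Vegfa, Vegfb and Adm) had an unadjusted p under 0.05. Over all tested probes, 0.107% passed, and 4678 of 23388 had an unadjusted p under 0.05. Vegfa passed under 6 of the 16 processing alternatives and Adm under 1, without embryo 7, while the 6 other tested members passed under none of them. Of the 7 members measured on every array, 3 had all homozygous above all other embryos, against 4.71% of all probes. These counts use the contrast that led to the choice of the genes, so nothing is read from them.

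**Figure D2:**
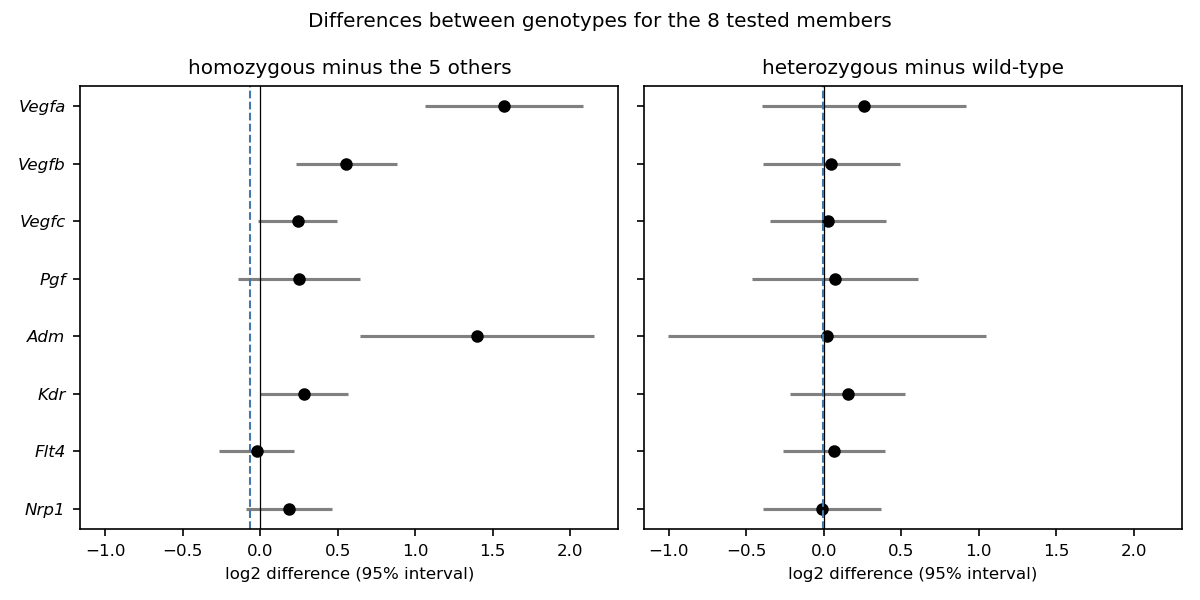
Log2 difference with its 95% interval (horizontal axis) for the 8 tested members, for homozygous minus the 5 other embryos on the left and heterozygous minus wild-type on the right. The dashed line is the median of all tested probes. On the left Vegfa is at 1.57 and Adm at 1.40, and on the right all 8 intervals include 0.

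The heterozygous embryos allow a comparison that the choice of genes did not use, namely whether 1 copy of the allele goes with a different level. No member passed in this comparison. The difference from wild-type was 0.26 for Vegfa (SE 0.28, 95% interval -0.40 to 0.92), 0.05 for Vegfb, 0.03 for Vegfc, 0.07 for Pgf and 0.02 for Adm (95% interval -1.0 to 1.05). For the receptors it was 0.15 for Kdr (95% interval -0.22 to 0.52), 0.07 for Flt4 and -0.01 for Nrp1. The limma adjusted p was 0.9999 for each of the 8, and 0 had an unadjusted p under 0.05. Of all 23387 probes tested, 0 passed (0%), with 538 at an unadjusted p under 0.05. The intervals are wide, and for Vegfa and Adm they take in changes of 0.9 on the log2 scale or more. Kdr was the only one of the 8 tested members whose 3 heterozygous embryos all lay above both wild-type embryos, an order that 9.05% of all probes showed. Flt1 had the same order, at levels that were not above background in any of these 5 embryos.

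Against wild-type and heterozygous embryos taken separately, the homozygous embryos gave like values. Vegfa differed by 1.73 (SE 0.28) from wild-type and by 1.47 (SE 0.25) from heterozygous embryos, Adm by 1.41 (SE 0.44) and 1.39 (SE 0.39), and Vegfb by 0.58 (SE 0.19) and 0.54 (SE 0.17). Kdr differed by 0.37 (SE 0.16) and 0.22 (SE 0.14), and Flt4 by 0.02 and -0.05. These comparisons share the homozygous arrays. By limma, 0 of 8 members passed in either as reported, and Vegfa passed against wild-type under 1 of the 16 alternatives, with array weights. The members had 4 and 3 at an unadjusted p under 0.05, against 3577 of 23387 and 2721 of 23388 of all tested probes. By limma's adjusted p, 0.0342% and 0.0214% of all tested probes passed.

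**Figure D3:**
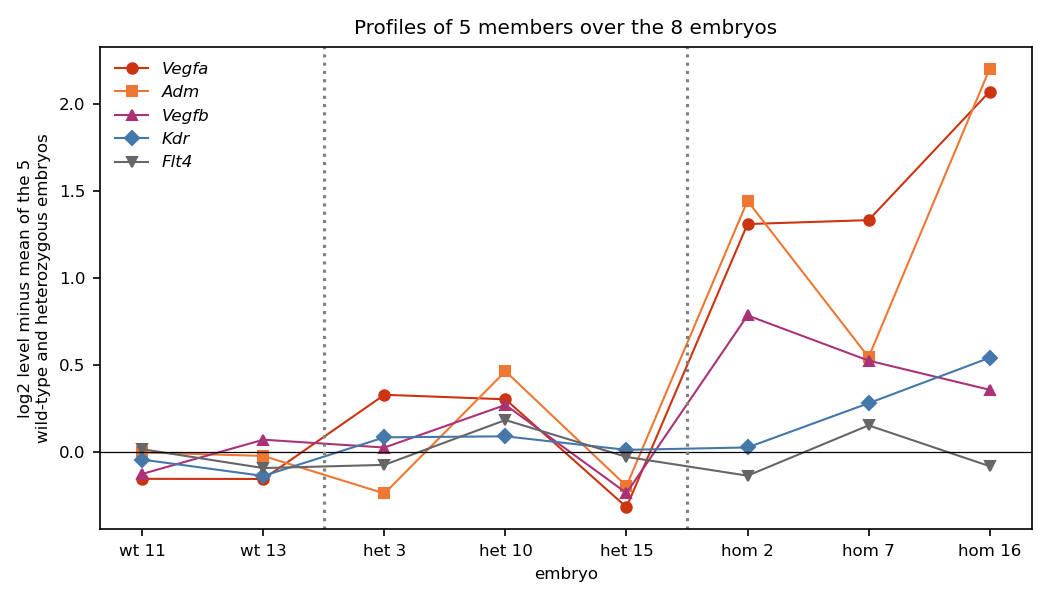
Log2 level of 5 members in each embryo, minus the gene's mean over the 5 wild-type and heterozygous embryos (vertical axis), with embryos grouped by genotype along the horizontal axis. Lines only join the points of a gene. Vegfa and Adm peak in embryo 16, where Vegfb is at its lowest among the homozygous embryos, and Flt4 stays near 0.

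The members did not vary together in 1 way. Over the 8 embryos, Pearson's r with Vegfa was 0.904 for Adm, 0.848 for Kdr, 0.790 for Vegfb, 0.746 for Nrp1, 0.655 for Pgf and -0.078 for Flt4, and 0.840 for Vegfc over 7. The points share the difference between genotypes and the brightness of the arrays. Without embryo 16, r was 0.935 for Vegfb, 0.811 for Adm, 0.687 for Kdr and -0.059 for Pgf. Within the 5 wild-type and heterozygous embryos alone it was 0.759 for Vegfb, 0.705 for Kdr and 0.389 for Adm, which is too few embryos to read further.

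Among 6463 named probes that ranged over at least 0.5 on the log2 scale, the 5 most like Vegfa over the 8 embryos were Pfkl (r = 0.988), Stt3b (0.986), Col18a1 (0.978), Hk2 (0.976) and Cage1 (0.972). Pfkl encodes the liver form of phosphofructokinase, Stt3b a catalytic subunit of oligosaccharyltransferase, Col18a1 the collagen from which endostatin is cut, and Hk2 a hexokinase. Within the 5 wild-type and heterozygous embryos, r with Vegfa was 0.960 for Pfkl and 0.614 for Cage1. The 5 most like Adm were Klf3 (r = 0.977), Tspan5 (0.976), P4ha1 (0.969), Tmem47 (0.969) and Pfkp (0.965). P4ha1 is a subunit of collagen prolyl hydroxylase and Pfkp the platelet form of phosphofructokinase. Within the 5 others, r with Adm was 0.901 for P4ha1 and 0.920 for Pfkp but 0.534 for Klf3.

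Genes that act beyond the receptors were listed as well. Of 37 genes of VEGF receptor signalling and feedback, 28 were tested, 15 had a positive difference between homozygous and other embryos, and the median was 0.04. None passed by limma, with 6 at an unadjusted p under 0.05. Over all tested probes, 39.8% were positive and 4678 of 23388 had an unadjusted p under 0.05. These shares also stand beside the counts of the lists below. Esm1, a proteoglycan of endothelial tip cells, was at 4.94, 5.22 and 5.70 in homozygous embryos and at 4.33 to 5.05 in the others, so the groups overlapped. Its probe was above background in 3 of 3 homozygous and 1 of 5 other embryos and passed the filter only through the homozygous group, so its difference is not given. Esm1 is 1 of the 6 with an unadjusted p under 0.05. The difference was 0.45 (SE 0.15) for Mapk3, the kinase Erk1, and -0.44 (SE 0.18) for the integrin subunit Itgb3. The brightest probes of the list, Map2k1, Akt1 and Hras, differed by 0.06, -0.11 and -0.10. Under median scaling 9 of 28 were positive and the median was -0.16, with that of all probes at -0.22.

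The partners of Adm were listed separately. Of 8 listed genes of its receptors and related peptides, 5 were tested, 0 passed, with 1 at an unadjusted p under 0.05, and 2 were positive. The receptor Calcrl differed by 0.18 (SE 0.16), its partner Ramp2 by 0.24 (SE 0.15), the scavenging receptor Ackr3 by -0.05 (SE 0.13) and the peptide precursor Calca by -0.30 (SE 0.12).

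Semaphorins and plexins, which share the neuropilins with VEGF, had 8 tested genes of 12, of which 6 were positive and 0 passed, with 1 at an unadjusted p under 0.05. Plxna4, a plexin that pairs with neuropilins, was dim, from 4.07 to 4.63 in homozygous and from 5.02 to 5.33 in the other embryos. Its probe was above background in 2 of 3 homozygous embryos. It passed the filter only through the other genotypes, so its difference is not given. Plxna4 and Plxna1 were the 2 of 8 genes with all homozygous below all other embryos, against 9.51% of all probes. Plxna1 and Plxna2 differed by -0.18 and 0.21 and the ligand Sema3c by 0.11.

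The list of related growth factors and receptors held Vegfd, the platelet-derived growth factor branch and the receptors Kit, Flt3 and Csf1r, the last with no probe. Of these genes, 9 of 10 were tested, 6 were positive, 0 passed, and 0 had an unadjusted p under 0.05. Kit and Flt3 differed by 0.14 and -0.06. Vegfd, a further ligand of Flt4 that is not among the 10 members, differed by 0.08 (SE 0.12). Pdgfa differed by 0.19, Pdgfb by 0.19, Pdgfd by -0.16 and Pdgfra by 0.09, all within 2 SE. Under median scaling 1 of 9 was positive, while 7 of 9 lay above the median of all tested probes, against 8 of 9 as reported. Of the angiopoietins and Tie receptors, a parallel vessel pathway, 3 of 5 were tested and 0 passed, with 1 at an unadjusted p under 0.05. The receptors Tek and Tie1 differed by 0.08 (SE 0.14) and 0.20 (SE 0.11), the second without embryo 3, whose spot was left out. The ligand Angpt2 differed by -0.50 (SE 0.13), from 4.86 to 5.41 in homozygous and from 5.46 to 5.73 in the other embryos, again with no overlap. All 3 homozygous embryos lay below all 5 others for 9.51% of all probes.

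**Figure D4:**
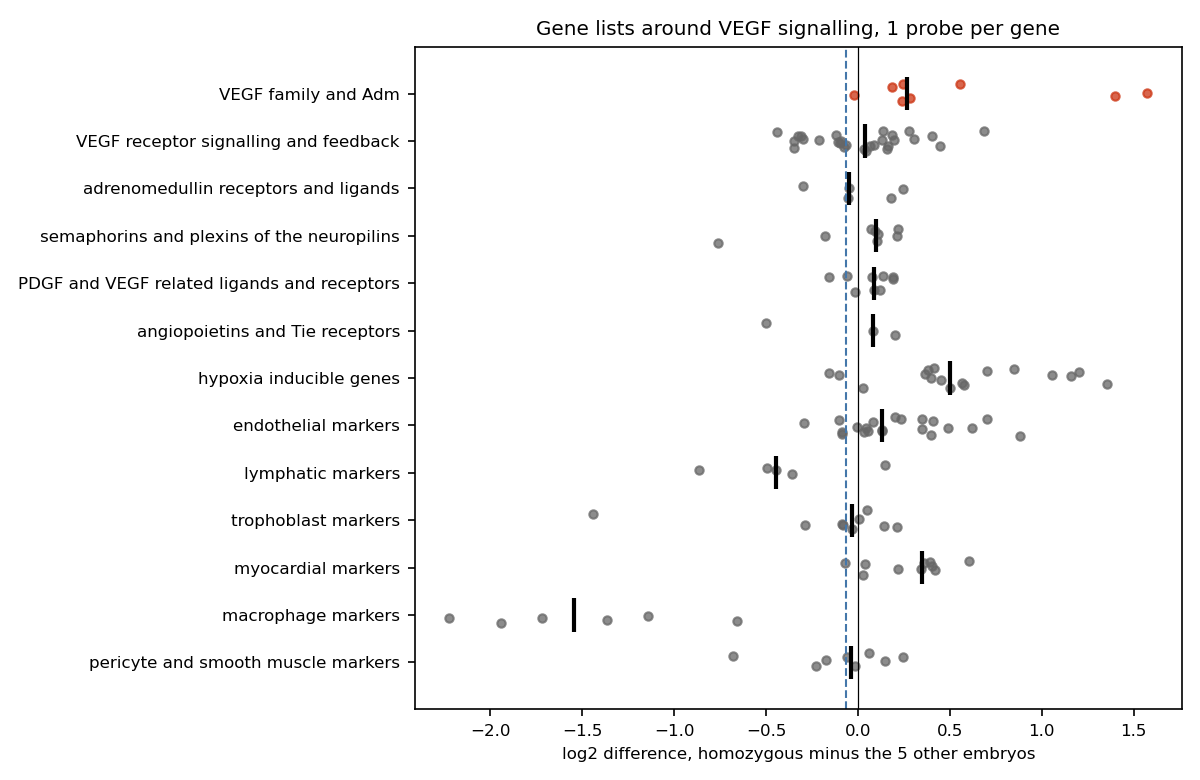
Log2 level in homozygous minus the 5 other embryos (horizontal axis) for each tested gene, 1 point per gene, in the VEGF family and 12 lists. Vertical bars are medians and the dashed line is the median of all tested probes. Points and medians include genes that passed the filter only through 1 side of the comparison. Among them are Esm1, Plxna4, Lyve1 and Fcgr1, whose differences the text does not give. The medians are 0.50 for hypoxia-inducible genes, 0.26 for the family, 0.13 for endothelial markers and 0.04 for VEGF receptor signalling.

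A list of the response to low oxygen held known targets of the hypoxia-inducible factors and the factors' own subunits. Of 17 tested among 21, 15 were positive, the median was 0.50, and 6 of the 16 with no missing value had all homozygous above all other embryos, against 4.71% of all probes. The negative ones were the subunits Epas1 (-0.10, SE 0.25) and Arnt (-0.16, SE 0.12). None passed by limma as reported and up to 3 under an alternative, with 11 at an unadjusted p under 0.05. The 3 largest differences were 1.35 (SE 0.22) for Bnip3, 1.20 (SE 0.18) for Hk2 and 1.16 (SE 0.31) for Vldlr. The brightest, the glycolytic enzymes Ldha and Pgk1 and the mitochondrial protein Higd1a, differed by 0.41 (SE 0.19), 0.58 (SE 0.14) and 0.36 (SE 0.14). The median was 0.33 without embryo 16 and 0.32 in the deposited value table.

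Markers of cells that carry or make these proteins were listed too. Of 21 tested endothelial markers among 23, 16 were positive, the median was 0.13 and 0 passed, with 9 at an unadjusted p under 0.05. Of the 20 measured on every array, 7 had all homozygous above all other embryos, against 4.71% of all probes. For 1 they lay below all others, against 9.51%. The log2 of the summed intensity of the 20 measured on every array ranged from 12.57 to 12.76 in the 5 other embryos and was 12.76, 12.84 and 13.12 in homozygous embryos 2, 7 and 16. It was highest in embryo 16, as was Kdr, and embryo 2 was level with heterozygous embryo 10. The largest differences were 0.88 (SE 0.20) for Vwf, 0.70 (SE 0.17) for Sox7 and 0.62 (SE 0.14) for Cd93. The 5 negative ones went down to -0.29 (SE 0.10) for Fli1. The brightest markers, Esam, Plvap and Egfl7, differed by 0.06 (SE 0.16), 0.49 (SE 0.14) and 0.05 (SE 0.09). Without embryo 16, 12 of 21 were positive. Under median scaling 11 of 21 were positive, while 17 of 21 lay above the median of all tested probes, the same count as reported. Lymphatic markers, beside Flt4 and Vegfc, had 5 of 5 tested, 1 positive, a median of -0.45 and 0 passing, with 3 at an unadjusted p under 0.05. Lyve1, 1 of these 3, was above background in both wild-type, 2 of 3 heterozygous and 2 of 3 homozygous embryos. It passed the filter on dim probes only through the wild-type group, so its difference is not given. With the filter on all arrays 4 of the 5 remained, 1 of them positive, with a median of -0.40. The summed log2 level of the 5 lymphatic markers was 10.90 to 11.43 in the other embryos and 11.11, 10.92 and 10.66 in the homozygous ones. This sum is mostly Pdpn, with a mean log2 level of 10.67, where the next brightest, Reln, was at 8.16. With each of the 5 genes centred on its own mean, Lyve1 included, their average was 0.03 to 0.29 in the others. In homozygous embryos 2, 7 and 16 it was -0.29, -0.09 and -0.38.

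Trophoblast markers, listed because Pgf and Flt1 are abundant in placenta, had 9 of 14 tested and a median of -0.03, and 0 passed, with 1 at an unadjusted p under 0.05. The summed log2 level of the 8 measured on every array, which leaves out Prl3b1, was 10.18 to 10.47 in the others and 10.21, 10.44 and 10.43 in homozygous embryos, and the defining markers Prl3d1 and Tpbpa did not pass the filter on dim probes. The placental lactogen Prl3b1 differed by -1.44 (SE 0.31). Its spot was left out in embryo 15, and embryo 16, which was highest in Pgf, had the lowest of the 7 measured levels, at 5.14. Myocardial markers had 10 of 13 tested, a median of 0.35 and 0 passing, with 1 at an unadjusted p under 0.05. Their summed level was 14.28 to 14.88 in the others and 14.85 to 14.88 in homozygous embryos. Their median was -0.03 in the deposited value table, where that of all tested probes was -0.25. In that setting 8 of 10 lay above the median of all, against 9 of 10 as reported. Macrophage markers had 6 of 10 tested, 0 positive, a median of -1.54 and 0 passing (up to 2 under an alternative), with 4 at an unadjusted p under 0.05. Of these markers, Fcgr1 and Mrc1 passed the filter on dim probes only through the wild-type embryos. C1qa and C1qb passed it only through the wild-type and heterozygous ones. The median and the counts thus depend in part on the filter, and nothing is read from them. With the filter on all 8 arrays 1 of the 6 remained, at -1.14. The summed level of the 5 measured on every array was 7.27 to 9.49 in the others, lowest in heterozygous embryo 10, and 6.94 to 7.60 in homozygous embryos. The Fc receptor gene Fcgr1 was the only listed gene to pass in any of the 4 comparisons as reported, in homozygous against wild-type. It was at 3.75, 3.83 and 3.77 in homozygous embryos 2, 7 and 16 and at 5.96 and 6.01 in wild-type. Its probe was above background in 1 of 3 homozygous, 2 of 3 heterozygous and both wild-type embryos. Fcgr1 thus passed the filter only through the wild-type group, so its difference is not given. Pericyte and smooth muscle markers had 8 of 9 tested, a median of -0.04, 0 passing and 0 at an unadjusted p under 0.05. The part of any of these cell types in the members' differences was not tested.

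**Figure D5:**
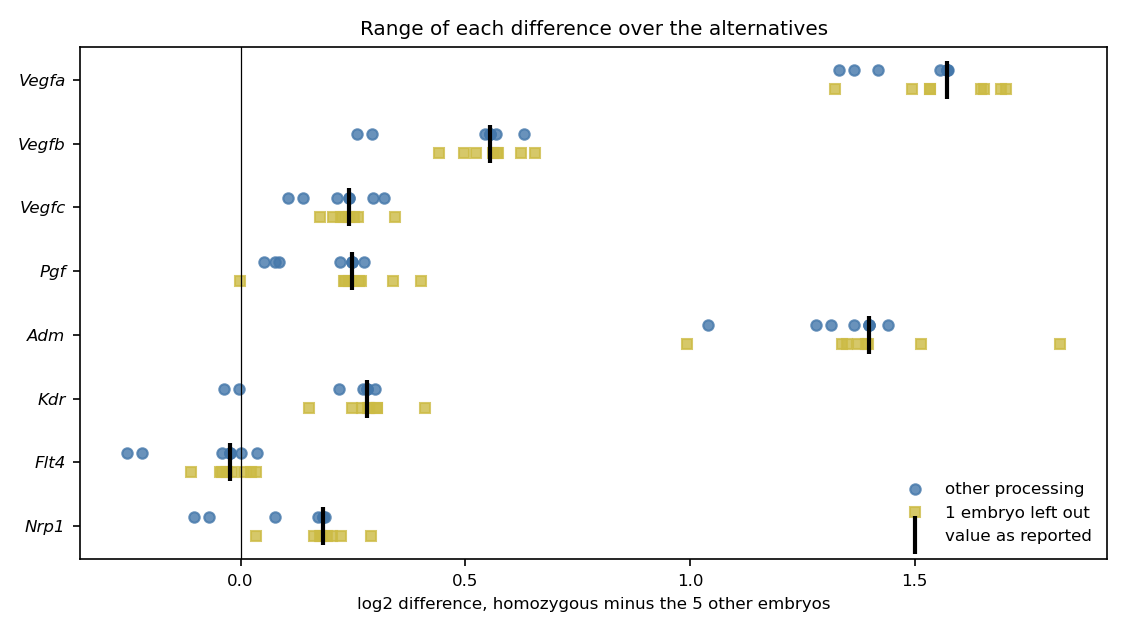
Log2 level in homozygous minus the 5 other embryos (horizontal axis) for each tested member, as reported (black bar), under other processing (circles) and with 1 embryo left out (squares). Vegfa stays between 1.32 and 1.70 and Adm between 0.99 and 1.82, while the values of Pgf, Kdr, Flt4 and Nrp1 fall on both sides of 0.

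Over the 16 alternatives, the difference between homozygous and other embryos kept its sign for Vegfa (1.32 to 1.70), Vegfb (0.26 to 0.65), Vegfc (0.10 to 0.34, over 15) and Adm (0.99 to 1.82). It took both signs for Pgf (-0.0012 to 0.40), Kdr (-0.04 to 0.41), Flt4 (-0.25 to 0.04) and Nrp1 (-0.10 to 0.29).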

How the data were processed

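Biotin-labelled cRNA of 1 embryo was hybridised to each of the 8 arrays, per the labels, and the replicates are separate embryos. The deposited array files hold a scanner intensity per spot which, per the file headers and the values, equals the mean over the spot less the median of the background around it. The scanner software is not given in the sources used here. The deposited value table holds the same intensities divided by 1 factor per array, and differed from the array files by at most 5.0e-08. It served as an alternative.

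Gene spots marked as contaminated, irregular or masked (206 to 1634 per array) were set missing. Intensities were quantile normalized with limma 3.58.1 in R 4.3.3, floored at the 5th percentile of positive values (an intensity of 4.5, log2 2.17) and put on the log2 scale. A probe was tested where at least 1 genotype had it above background on each of its arrays, and 2 or 3 arrays per genotype limit the precision. limma's lmFit and eBayes, two-sided, with Benjamini-Hochberg adjustment over all tested probes, compared the 3 homozygous with the 5 other embryos and, in a model of 3 genotype means, each pair of genotypes. The method was tested on simulated data.

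Probes were named through RefSeq accessions in a gene list of GRCm38.p6, which gave 14763 probes 1 symbol and left 20204 unnamed. All members are named. Of each other list, members past the threshold were to be named, and otherwise up to 3 with the largest absolute difference and up to 3 with the highest mean, of which those printed were chosen after their values were seen. The highest-mean probe stood for a gene in the lists. The genes most like Vegfa and Adm were the 5 with the highest Pearson correlation. The members and the 12 lists were chosen with earlier results of these data known. The 16 alternatives were the deposited value table, cyclic loess, median scaling, a floor at the 1st percentile, no filter on dim probes, a filter on all 8 arrays, marked spots kept, array weights and each embryo left out in turn.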

Additional observations from a re-analysis of the deposited data

How the results depend on the processing

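With 8 arrays, and homozygous arrays that were all brighter than the rest, several small differences changed sign between settings. Between homozygous and other embryos, Kdr was at -0.0029 and Nrp1 at -0.069 under median scaling, at -0.037 and -0.10 in the deposited value table, and Flt4 at 0.0013 under cyclic loess and 0.037 with array weights. Against wild-type, Flt4 and Nrp1 in homozygous embryos were at -0.22 and -0.11 (median scaling) and at -0.25 and -0.15 (deposited table), and Flt4 was at -0.0022 with marked spots kept. Against heterozygous embryos, Kdr and Nrp1 were at -0.049 and -0.040 with median scaling, and at -0.082 and -0.073 for the deposited values, and Flt4 at 0.027 with array weights. Between heterozygous and wild-type embryos, Vegfb was at -0.0018 (median scaling) and -0.0035 (deposited table), Vegfc at -0.12 with marked spots kept, and Nrp1 and Adm at 0.0014 and -0.053 with array weights. The cause was not tested.

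Leaving out 1 embryo at a time, Flt4 ranged from -0.11 to 0.035 against the other embryos, from -0.071 to 0.074 for homozygous against wild-type, from -0.013 to 0.12 for heterozygous against wild-type and from -0.14 to 0.030 for homozygous against heterozygous. Pgf ranged from -0.0012 to 0.40 against the others and from -0.029 to 0.37 against heterozygous embryos. For heterozygous against wild-type, Vegfb ranged from -0.078 to 0.18, Vegfc from -0.017 to 0.073, Adm from -0.20 to 0.15 and Nrp1 from -0.055 to 0.021.

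The number of probes past the threshold between homozygous and other embryos, 25 as reported, was 42 under cyclic loess, 45 in the deposited table, 6 with no filter on dim probes, 50 with the filter on all arrays, 110 with array weights, and from 5 to 189 with 1 embryo left out (189 when embryo 7 was left out, 44 for embryo 10, 14 for embryo 3, 6 for embryo 11, and 5 for embryo 13 or 15). For homozygous against wild-type, 8 as reported, it was 27 under median scaling, 20 under loess, 27 in the deposited table, 5 with the lower floor, 4 with no filter, 5 with marked spots kept, 208 with array weights and from 0 to 16 with 1 embryo left out. For heterozygous against wild-type, 0 as reported, it was 2 under median scaling, 1 under loess, 2 in the deposited table, 1 with array weights and from 0 to 2 with 1 embryo left out. For homozygous against heterozygous, 5 as reported, it was 10, 9, 12 and 13 under the same 4 settings and from 4 to 24 with 1 embryo left out. In no alternative did a member pass between heterozygous and wild-type embryos.

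No paired analysis was possible because the embryo numbers are not shared between genotypes. When 1 wild-type embryo was left out, the spread of the lone one was taken from the other genotypes.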
